A study of Mus musculus with 354 samples.

Results

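Tolvaptan, which blocks the vasopressin V2 receptor and is given to slow cyst growth in polycystic kidney disease, was compared with vehicle in the livers of male mice of OR5119, an inbred strain of the Collaborative Cross. The comparison rests on 8 arrays of the 354 in the series, namely the 4 arrays labelled OR5119 and tolvaptan (animals 365 to 368) and the 4 labelled OR5119 and control (animals 361 to 364). The strain was selected on this same contrast, for the number of genes called in it among the 45 strains, so its differences and calls are given as a description and without p-values. The mice were about 8 to 10 weeks old, carried no engineered allele in the labels, were fasted for about 18 h and were sampled 24 h after treatment. The other 44 strains contributed 346 arrays of the same design, and their averaged difference, fitted without any OR5119 array, is the measurement that the selection did not use. Each array is labelled as a separate animal of 1 inbred line, and the spread between arrays includes that between animals.

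Vehicle animal 364 did not carry the expression profile of OR5119. Over 500 strain-informative probe sets, its array correlated at -0.0461 with the other OR5119 arrays and at 0.9253 with strain AU8005, while the other 7 arrays correlated at 0.6495 (animal 368) to 0.8951 (animal 363) with their own strain. Vehicle animal 361 matched the strain but had the 3rd widest spread of relative log expression of all 354 arrays, with an interquartile range of 0.5861 against a typical 0.3791, and was the only OR5119 animal in scan 6. Tolvaptan animal 368 ranked 32nd by that spread. Animals 362, 363, 365, 366 and 367 shared scan 4, and animals 364 and 368 shared scan 1. The hepatocyte markers were high in all 8 animals, with a mean log2 value over 12 genes of 11.05 to 11.45. Results are therefore given with and without animal 364, and where it matters without both 361 and 364, a setting chosen after the data were seen.

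The hepatocyte makes most plasma proteins, and a load of unfolded protein in its endoplasmic reticulum switches on chaperones and the degradation machinery through the factors ATF6 and XBP1. Shortage of amino acids, or the same protein load acting through the kinase PERK, raises the factor ATF4, whose targets make and import amino acids. Inflammatory cytokines drive the acute phase proteins, which the liver secretes. These responses are known from cultured cells and from livers under other kinds of stress, and are given here as background.

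Limma called 269 of 14125 genes in OR5119 at a Benjamini-Hochberg adjusted p under 0.05, which is 1.90% of the genes tested. Of these, 140 genes (0.991%) were higher and 129 (0.913%) lower with tolvaptan. These shares are the background for the counts of called genes in each list below. Without animal 364 the calls numbered 165 (1.17%), 75 higher (0.531%) and 90 lower (0.637%), and 139 genes were called both ways. Leaving out animals 361 and 364 together left 35 calls (0.248%). The calls numbered 432 without animal 365 and 591 without 366, but 126 without 367 and 95 without 368, of which 79 were higher and 16 lower. Within scan 4, with 2 vehicle and 3 tolvaptan animals, 8 genes were called. Every call, and every SE of an OR5119 difference, draws on the residual spread pooled over all 45 strains. The SE therefore does not measure the spread among the OR5119 animals alone. Of genes named below, the SD among the 4 tolvaptan animals was 2.69 for Dpys, 3.12 for Derl3 and 2.38 for Psat1, but 0.39 for Pck2. A limma fit on the 8 OR5119 arrays alone called 0 genes, with 525 of 14125 at an unadjusted p under 0.05. That is below the share of 0.05 reached on average with no difference. In 182 genes all 4 tolvaptan animals lay above all 4 vehicle animals, which is 1.29% of the genes tested, and in 178 genes (1.26%) they lay below. Neither share is higher than an arbitrary split of the 8 animals gives on average, so a lack of overlap is a description of a gene only. The median difference over all genes was -0.001 on the log2 scale, with 7038 genes positive.

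**Figure D1:**
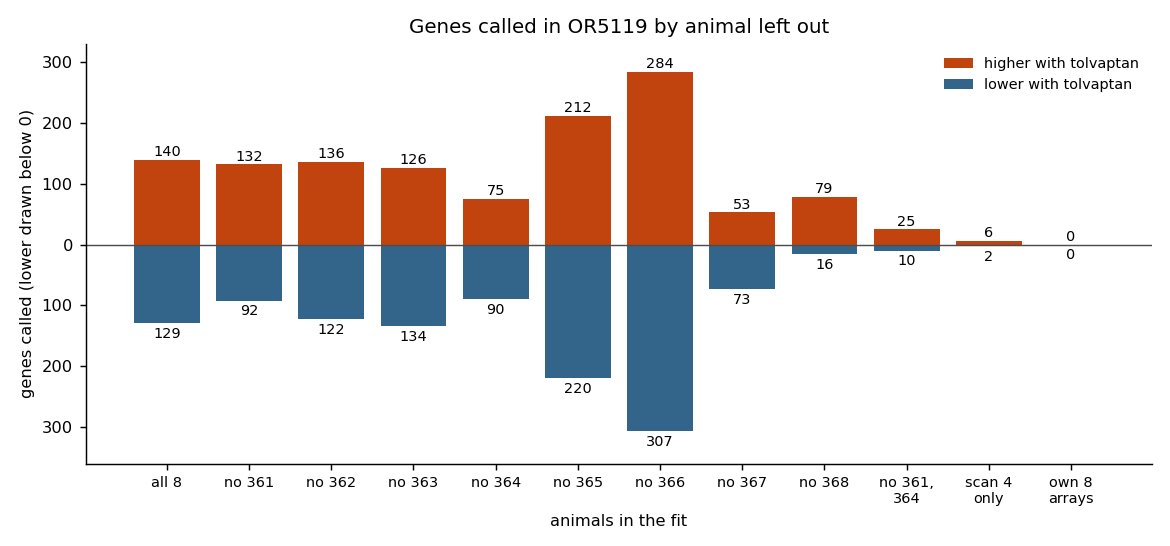
Genes called higher (red) or lower (blue, drawn below 0) with tolvaptan in OR5119, with all 8 animals, without each animal in turn, without vehicle animals 361 and 364, in scan 4 alone and in a fit of the 8 arrays alone. The counts run from 269 with all 8 animals to 591 without animal 366 and 95 without animal 368, where 16 lower calls are left.

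Genes of the amino acid response were among the largest rises. Psat1, the phosphoserine aminotransferase of serine synthesis, read 2.56, 2.17, 2.77 and 1.83 on the log2 scale in vehicle animals 361 to 364 and 5.99, 2.39, 6.86 and 7.86 in tolvaptan animals 365 to 368. It was high in 3 tolvaptan animals, and animal 366 stayed at the vehicle level. All 4 vehicle values and that of 366 lay under 2.89, the median of a typical array. The Psat1 difference, adjusted for scan, was 3.50 ± 0.56 (SE) with all 8 animals and 3.28 ± 0.61 without animal 364, and the call held without each animal in turn. In scan 4 the difference was 2.61 and was not called. Pck2, the mitochondrial phosphoenolpyruvate carboxykinase, read 4.34, 4.65, 4.53 and 3.47 with vehicle and 6.67, 5.72, 6.22 and 6.33 with tolvaptan. The groups did not overlap, and the difference was 2.04 ± 0.29, or 1.75 ± 0.31 without animal 364. Its 2 probe sets had the same direction, but with their mean the difference was smaller, at 1.24. Asns, the asparagine synthetase, read 6.66, 4.22, 6.59 and 3.56 with vehicle and 6.53, 5.07, 8.98 and 9.80 with tolvaptan. It was high only in animals 367 and 368, and its difference of 2.51 ± 0.65 lost its call without 362, 364, 367 or 368. Slc3a2, the heavy chain shared by several amino acid exchangers, was likewise highest in 367 (9.47) and 368 (11.48), with 7.60 and 7.59 in 365 and 366 against 7.82 to 8.78 with vehicle. Its difference of 0.96 ± 0.26 lost its call without 363, 364, 367 or 368.

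Of 27 tested genes in the list of ATF4 and amino acid response genes, 6 were called higher and 0 lower, the other 2 being Slc7a1, a transporter of cationic amino acids, and Sars, the seryl-tRNA synthetase. Without animal 364, 3 were called higher. The median difference of the list was 0.33, against -0.001 over all genes, and 20 of 27 genes were positive. In scan 4 the list's median was 0.17. The list stood out in 2 animals. Its mean level was 1.38 above the mean of vehicle animals 361 to 363 in animal 368 and 0.68 above it in animal 367, but 0.05 below it in 365 and 0.36 below it in 366. In animal 368, 21 of the 27 genes exceeded all of 361, 362 and 363.

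The promoters of Asns and Pck2 are printed because both hold a sequence that ATF4 dimers bind. The 250 bases before the annotated start of each gene come from RefSeq (GRCm38.p6), are written 5′ to 3′ on the gene's strand, and show the match to TGATGNAA in capitals. The Asns window is chr6:7693210-7693459 on the minus strand, and its match lies 23 to 16 bases before the start. The Pck2 window is chr14:55540016-55540265 on the plus strand, and its match, on the opposite strand, lies 103 to 96 bases before the start.
Asns: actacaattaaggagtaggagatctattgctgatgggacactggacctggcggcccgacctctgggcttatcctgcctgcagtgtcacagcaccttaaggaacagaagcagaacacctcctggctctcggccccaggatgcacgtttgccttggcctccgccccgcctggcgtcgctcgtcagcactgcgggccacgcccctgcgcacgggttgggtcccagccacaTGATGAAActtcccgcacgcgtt
Pck2: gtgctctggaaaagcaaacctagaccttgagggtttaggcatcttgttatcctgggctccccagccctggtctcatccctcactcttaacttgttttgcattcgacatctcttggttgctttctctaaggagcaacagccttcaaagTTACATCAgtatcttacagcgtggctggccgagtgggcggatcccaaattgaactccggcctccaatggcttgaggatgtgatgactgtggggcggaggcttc
Searched on both strands of the 300 bases around the start, TGATGNAA was found in 9 of the 25 genes of this list with a RefSeq promoter (36.0%) and in 1219 of 27025 genes of the table (4.51%). Asns and Pck2 were the only genes of the 9 that were called. The called Psat1, Slc3a2, Slc7a1 and Sars were not among the 9. The list was drawn up around the known ATF4 response. Its share is therefore a property of the list, not a result of the tolvaptan comparison. A match describes the sequence and does not show binding, and whether ATF4 acted here was not tested.

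Chaperones and degradation factors of the endoplasmic reticulum formed another group of rises, with a different order of animals. Derl3, a channel component of endoplasmic reticulum-associated degradation, read 5.92, 7.04, 5.86 and 5.21 with vehicle and 11.79, 10.30, 11.11 and 4.94 with tolvaptan. Animals 365 to 367 lay far above every vehicle animal, and animal 368 lay below all of them. The difference was 3.29 ± 0.89, and it lost its call without 363, 364, 365 or 367. In scan 4, which leaves out 368, it was 4.61 and not called. Pdia6, a protein disulfide isomerase, read 8.71, 8.90, 9.12 and 8.06 with vehicle and 10.79, 9.88, 11.05 and 9.07 with tolvaptan. Only animal 368 lay within the vehicle range, and the difference of 1.39 ± 0.29 (1.23 without animal 364) kept its call without each animal in turn. Pdia4, of the same enzyme family, read 8.38, 8.23, 8.44 and 8.01 with vehicle and 9.92, 8.98, 10.58 and 8.08 with tolvaptan, again with animal 368 at the vehicle level. Sdf2l1, a partner of the luminal chaperones, reached 11.57 in animal 367 and 9.99 in 365, against 8.68 in 366, 8.41 in 368 and 6.03 to 8.55 with vehicle. Without animal 364, Derl3, Pdia4 and Sdf2l1 had differences of 3.20, 1.01 and 1.87 and were not called. Pdia4 also lost its call without 362, 365 or 367, and Sdf2l1 without 367.

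In this list 27 of 28 tested genes had a positive difference, 4 were called higher with all animals and 1 without animal 364. The median difference was 0.62 with all animals and 0.64 without animal 364. Mean list levels were 8.65, 8.68, 8.71 and 8.42 in vehicle animals 361 to 364 and 9.35, 9.01, 10.35 and 9.02 in tolvaptan animals 365 to 368. All 4 tolvaptan means lay above all 4 vehicle means, and animal 367 was the highest, with 27 of 28 genes above vehicle animals 361 to 363. The same count was 15 in animal 365, 9 in 366 and 13 in 368. Animal 368, highest for the amino acid response genes, was thus low for Derl3 and near the vehicle level for Pdia4.

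The promoters of Derl3 and Pdia6 are shown because both contain the endoplasmic reticulum stress element, CCAAT followed after 9 bases of any kind by CCACG, which ATF6 and XBP1 with NF-Y are known to use. Capitals mark the element, and the windows are again the 250 bases before the start in RefSeq (GRCm38.p6), 5′ to 3′ on the gene's strand. The Derl3 window is chr10:75893148-75893397 on the plus strand, with the element on the opposite strand at 156 to 138 bases before the start. The Pdia6 window is chr12:17266339-17266588 on the plus strand, with the element at 98 to 80 bases before the start.
Derl3: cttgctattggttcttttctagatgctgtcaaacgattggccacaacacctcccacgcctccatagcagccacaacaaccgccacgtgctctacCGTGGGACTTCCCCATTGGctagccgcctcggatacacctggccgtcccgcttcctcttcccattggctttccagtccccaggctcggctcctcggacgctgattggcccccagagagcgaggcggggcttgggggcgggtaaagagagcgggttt
Pdia6: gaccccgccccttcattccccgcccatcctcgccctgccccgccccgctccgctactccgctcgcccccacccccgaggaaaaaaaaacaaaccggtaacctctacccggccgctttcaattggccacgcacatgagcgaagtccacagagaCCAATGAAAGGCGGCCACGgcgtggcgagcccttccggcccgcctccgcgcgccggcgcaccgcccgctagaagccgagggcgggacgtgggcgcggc
The element was present in 10 of the 25 list genes with a RefSeq promoter (40%) and in 37 of 27025 genes of the table (0.137%), over both strands of 300 bases. In the amino acid response list it was found in 0 of 25 promoters, and TGATGNAA was found in 1 of the 25 promoters of the chaperone list. Of the 10 chaperone list genes with the element, only Derl3 and Pdia6 were called. The called Pdia4 and Sdf2l1 were not among them. Both lists were drawn up around known responses, so these shares are properties of the lists and not results of the tolvaptan comparison. Whether ATF6 or XBP1 acted here was not tested.

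The acute phase proteins that were called lay above the vehicle range in all 4 tolvaptan animals. Saa3, a serum amyloid A protein, read 7.95, 6.79, 6.89 and 7.29 with vehicle and 11.57, 10.81, 9.56 and 9.20 with tolvaptan. The groups did not overlap, with animal 365 the highest, and the difference was 3.08 ± 0.82, or 3.22 ± 0.88 without animal 364. Its call was lost without 362, 363 or 365. Orm2, an alpha-1-acid glycoprotein, read 9.47, 10.44, 8.25 and 6.18 with vehicle and 11.68, 10.74, 10.76 and 12.90 with tolvaptan. Animal 364 was the lowest of all, and without it the difference moved from 3.33 to 2.61 and was not called, as also without 361, 363, 365, 367 or 368. Hp, the haemoglobin-binding haptoglobin, read 13.10, 13.24, 13.01 and 12.90 with vehicle and 13.40, 13.37, 13.43 and 13.38 with tolvaptan, a small difference of 0.35 ± 0.09 without overlap that was 0.28 and not called without animal 364, nor called without 363, 367 or 368. Of 25 tested acute phase genes, these 3 were called higher and 0 lower, 18 were positive and the median difference was 0.27; without animal 364 only Saa3 was called. Within scan 4 the list's median was 0.06. Lcn2, the siderophore-binding lipocalin, read 6.87, 6.78, 6.12 and 5.20 against 11.41, 7.40, 10.01 and 8.72 and was not called (3.56 ± 1.37).

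**Figure D2:**
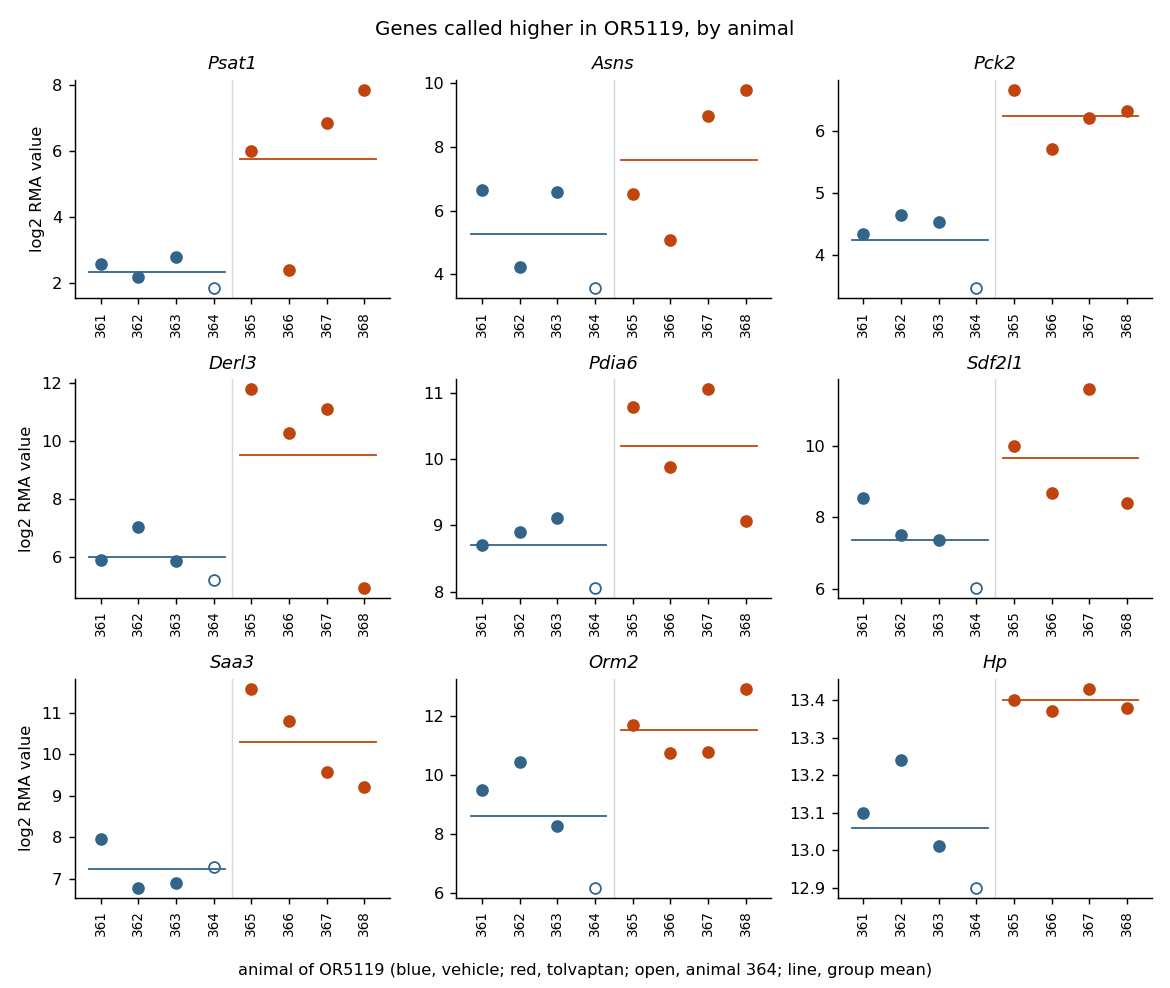
Log2 RMA values of 9 genes called higher in OR5119, with 1 point per animal (blue, vehicle; red, tolvaptan; open, animal 364) and lines at the group means; each panel has its own axis. Asns is highest in animals 367 and 368, Derl3 is high in 365 to 367 and at 4.94 in 368, and Saa3 is above all vehicle animals in all 4.

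The 12 largest rises that were called with and without animal 364, and kept their sign without each animal, also held several genes outside these lists. Wfdc12, a secreted inhibitor of the whey acidic protein family, read 4.40, 3.69, 4.03 and 4.02 with vehicle and 5.42, 7.21, 6.62 and 7.94 with tolvaptan, a difference of 2.76 ± 0.60. Its relative Slpi, the secretory leukocyte protease inhibitor, read 5.73, 3.84, 4.75 and 5.97 against 6.89, 6.34, 7.19 and 7.91, with a difference of 2.16 ± 0.58 whose call was lost without 362, 367 or 368. Neither gene's groups overlapped. Cpne8, a calcium-dependent phospholipid-binding copine, differed by 2.60 ± 0.58, from 3.29 to 4.09 with vehicle to 5.36 to 7.01 with tolvaptan. Cd68, a lysosomal glycoprotein abundant in macrophages, read 5.86, 5.26, 4.84 and 4.50 with vehicle and 7.11, 6.59, 6.54 and 8.39 with tolvaptan. All tolvaptan animals lay above the vehicle range, the difference was 2.08 ± 0.38, and it was called without each animal and without both 361 and 364 (2.11). In that last setting 13 of the 59 named genes called in the response kept their call, Cpne8 and Slpi not among them. Gla, the lysosomal alpha-galactosidase A, was between 2.42 and 3.56 with vehicle and read 4.91, 3.80, 5.01 and 6.04 with tolvaptan (1.85 ± 0.29). With the mean of 2 probe sets the difference was 1.26 for Gla and 2.97 for Cpne8.

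S100g, a vitamin D-dependent calcium-binding protein, was at 2.07 to 2.31 with vehicle, under the 2.89 of a typical array's median, and read 3.92, 2.86, 4.0 and 4.31 with tolvaptan. Cmpk1, a kinase of pyrimidine nucleotides, read 8.93, 8.31, 8.69 and 8.63 with tolvaptan, but vehicle animal 363 was at 8.44 while the other vehicle animals lay between 6.22 and 6.47. Of its 2 probe sets, 1 had the same direction. Cyb5r1, a cytochrome b5 reductase, was high only in 367 (7.18) and 368 (6.0), and Tes, the adhesion protein testin, was highest in 367 (6.25); both lost their calls without animal 367. With all 8 animals and with each animal left out, 36 genes were called every time, 26 of them higher. Among these, and named after their values were seen, Gpnmb, a glycoprotein of macrophages and lysosomes, was at 2.71 to 2.82 in the vehicle animals and at 3.91, 3.26, 3.93 and 4.54 with tolvaptan. Its vehicle values, like those of S100g, lay under 2.89.

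Several of the largest falls were in genes of hepatocyte metabolism and were deepest in animals 367 and 368. Dpys, the dihydropyrimidinase of pyrimidine breakdown, read 10.59, 10.84, 10.67 and 10.49 with vehicle and 10.50, 10.78, 8.53 and 4.94 with tolvaptan. Animals 365 and 366 stayed at the vehicle level, and the difference of -2.04 ± 0.32 lost its call without animal 368 and was -0.82 in scan 4. Nr1i3, the nuclear receptor CAR that controls drug-metabolizing enzymes, read 8.42, 7.94, 8.54 and 9.09 with vehicle and 8.44, 8.51, 6.27 and 3.96 with tolvaptan. Its difference was -1.81 ± 0.33, -1.55 without animal 364 and -0.50 in scan 4, and its call too was lost without animal 368. Crip2, a LIM domain protein, Notum, a secreted enzyme that inactivates Wnt ligands, and Pbld2 were also lowest in 368 and next lowest in 367. They read 4.55, 3.81 and 4.13 in animal 368 against vehicle minima of 7.60, 6.63 and 8.56. All 3 lost their calls without animal 368. Notum in 365 (6.18) and 366 (6.28) and Crip2 in 365 (7.39) lay below the vehicle minima too. Abcc3, an exporter of conjugates into blood, was at 9.02 to 9.88 with vehicle, 9.28 and 9.25 in 365 and 366, and 6.86 and 6.02 in 367 and 368. Sulf2, a heparan sulfate sulfatase, read 9.55, 9.71, 6.71 and 6.99 with tolvaptan against 9.34 to 10.14, although 1 of its 2 probe sets had the opposite direction. Echdc3, an enoyl-CoA hydratase domain protein, was low in 367 (8.69) and 368 (5.31) only. Its difference of -1.33 turned to 0.02 in scan 4, and it lost its call without 361, 367 or 368. Abcc3 and Sulf2 lost theirs without 367 or 368.

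A pair of the largest falls had another order. Mfsd2a, a lysophospholipid transporter, read 9.62, 10.69, 10.42 and 10.81 with vehicle and 7.12, 7.99, 6.74 and 10.27 with tolvaptan, so that animals 365 to 367 were low and 368 was not. Its difference was -2.21 ± 0.54 with all animals and -3.27 in scan 4, where it was not called, and it lost its call without animal 367. Ctcflos, a transcript opposite Ctcfl, read 5.17, 6.95, 7.29 and 6.10 with vehicle and 4.72, 4.15, 4.06 and 4.62 with tolvaptan. The groups did not overlap, and its call held without each animal.

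Genes of glucose output, bile acids and amino acid breakdown were called lower, and 0 genes of these 3 lists higher. Of 15 tested genes of gluconeogenesis and fasting, 4 were called lower and 2 were positive, with a median difference of -0.48; without animal 364, 3 were called. Slc37a4, which carries glucose-6-phosphate into the endoplasmic reticulum, read 11.44, 11.60, 11.29 and 11.29 with vehicle and 10.70, 11.29, 10.65 and 8.59 with tolvaptan. Fbp1, the fructose bisphosphatase, read 12.96, 12.85, 12.78 and 13.08 with vehicle and 12.44, 12.80, 12.18 and 12.34 with tolvaptan, and its difference of -0.48 ± 0.10 was called without each animal in turn. Pcx, the pyruvate carboxylase, differed by -0.63 ± 0.16 and Pygl, the liver glycogen phosphorylase, by -0.74 ± 0.21, the latter not called without animal 364, which was its highest vehicle animal at 11.31. Slc37a4 lost its call without animal 368, Pcx without 361, 367 or 368, and Pygl also without 367 or 368.

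Of 26 tested genes of bile acid synthesis and transport, 4 were called lower, 2 of them without animal 364, and 4 were positive, with a median of -0.45. Cyp8b1, the sterol hydroxylase needed for cholic acid, read 11.74, 11.34, 11.61 and 11.30 with vehicle and 10.20, 11.69, 9.11 and 6.69 with tolvaptan, and its difference of -2.16 ± 0.57 lost its call without 361, 364, 367 or 368. Slc10a1, the sodium-dependent bile acid importer, read 10.44, 11.00, 11.15 and 12.08 with vehicle and 10.93, 11.33, 9.54 and 9.25 with tolvaptan, and Abcg8, a sterol exporter subunit, read 9.24, 8.62, 8.60 and 8.64 against 8.61, 8.59, 7.12 and 6.87. Animals 365 and 366 were at or near the vehicle levels of both. Both lost their calls without 367 or 368, Slc10a1 also without 364 and Abcg8 without 361. The bile salt export pump Abcb11 (-0.61 ± 0.34) and the conjugate exporter Abcc2 (0.12 ± 0.30) were not called.

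Of 30 tested genes of the urea cycle and amino acid breakdown, 7 were called lower and 4 were positive, and 5 were called without animal 364. The median difference was -0.22, or -0.34 in scan 4. Amdhd1, of histidine breakdown, differed by -1.72 ± 0.43 and read 3.51 in animal 368 against 7.15 to 7.86 with vehicle. Sardh, the sarcosine dehydrogenase, read 11.35, 10.84, 10.80 and 10.28 with vehicle and 10.14, 10.55, 9.47 and 9.18 with tolvaptan (-1.01 ± 0.23). Gldc, of the glycine cleavage system, and Asl, the argininosuccinate lyase, differed by -1.0 ± 0.26 and -0.98 ± 0.27, and Asl was not called without animal 364. Animal 368 was the lowest for Gldc (8.02), and animals 365 and 368 were the lowest for Asl (10.45 and 10.48). Without animal 368 the calls of Amdhd1, Sardh, Gldc and Asl were all lost, as they were without 367 for Amdhd1, 361 for Sardh, 362 for Gldc and 362, 363 or 365 for Asl. Elsewhere in hepatocyte metabolism, Fads1, a fatty acid desaturase, read 9.48, 10.40, 9.68 and 10.03 with tolvaptan against 10.43 to 10.96 and was called without each animal (-0.88 ± 0.20), as the 1 called gene of 19 in fatty acid and triglyceride synthesis. That list's median was -0.26 with all 8 animals, -0.11 without animal 364 and -0.08 in scan 4.

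Genes of antigen presentation and of sinusoidal endothelium were lower as well. In bulk liver, fewer cells of a type and less RNA per cell cannot be told apart. Cd74, the invariant chain that loads MHC class II, read 6.78, 6.03, 6.66 and 7.44 with vehicle and 5.36, 4.92, 4.72 and 5.10 with tolvaptan, without overlap, and kept its call without each animal (-1.67 ± 0.37, or -1.40 ± 0.40 without 364). H2-Ab1, the beta chain of a class II molecule, read 7.77, 7.99, 8.31 and 9.46 against 7.35, 7.07, 5.01 and 3.71. Its difference was -2.91 ± 0.70, and it was not called without animal 364 (-2.45), 367 or 368. Of 9 class II genes, 2 were called lower and 0 were positive, with a median of -1.01, or -0.88 without animal 364 and -0.41 in scan 4. Stab2, a scavenger receptor of sinusoidal endothelium, read 8.24, 7.66, 7.89 and 7.69 with vehicle and 7.06, 7.11, 6.06 and 6.24 with tolvaptan. The groups did not overlap, and the call held without each animal (-1.23 ± 0.24). With Dnase1l3 (-0.96 ± 0.26, not called without animal 364) it made up the 2 called genes of 16 sinusoidal endothelial markers, of which 2 were positive and whose median was -0.41. Dnase1l3 was also not called without 362, 367 or 368. The mean level of that list was 6.46 to 6.59 in the vehicle animals and 6.45, 6.45, 6.12 and 5.70 in the tolvaptan animals, so all 4 lay below the vehicle range, 365 and 366 only just. In scan 4 the list's median was -0.14 with 4 genes positive, and it was -0.27 without 361 and 364.

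**Figure D3:**
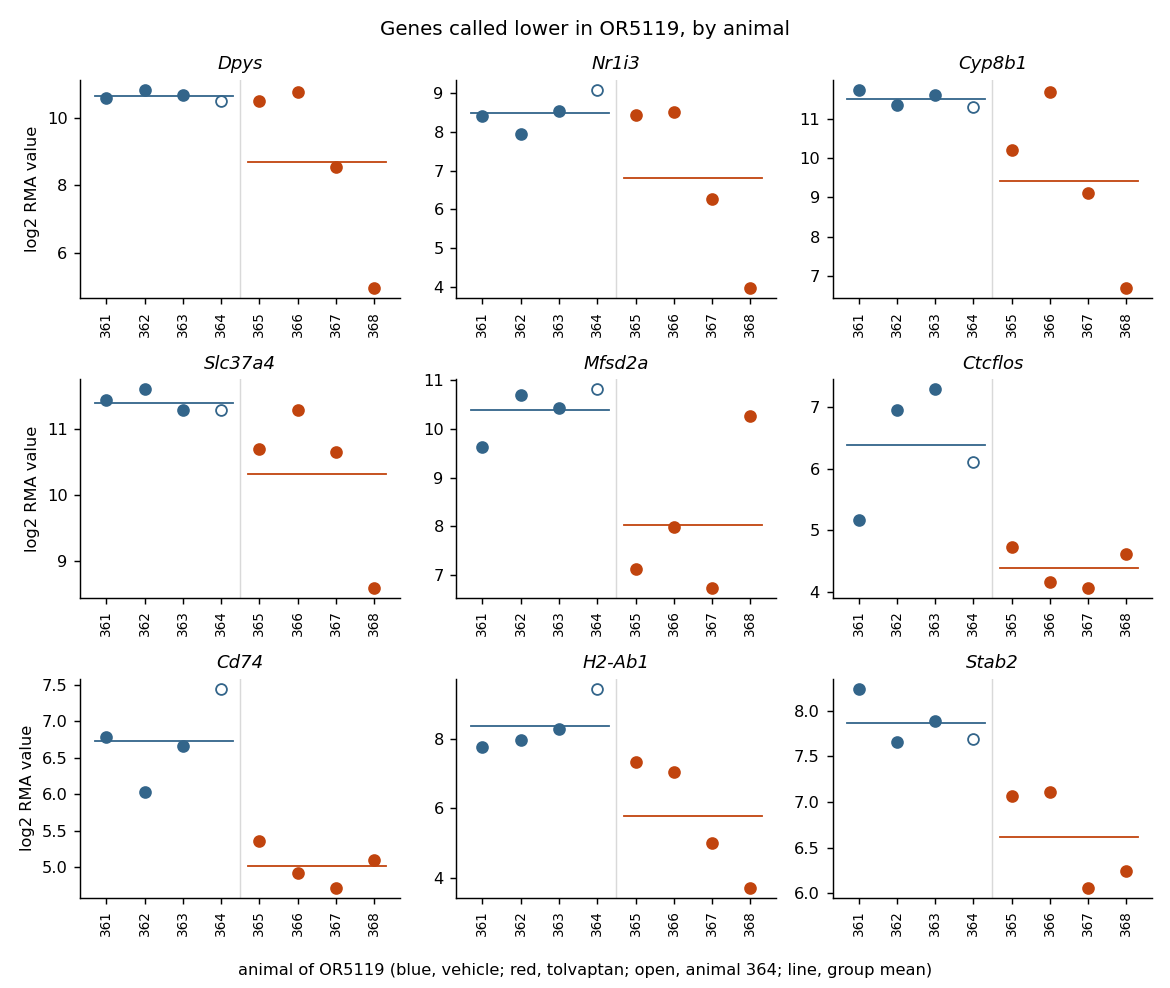
Log2 RMA values of 9 genes called lower in OR5119, with 1 point per animal (blue, vehicle; red, tolvaptan; open, animal 364) and lines at the group means; each panel has its own axis. Dpys, Nr1i3 and Cyp8b1 are lowest in animal 368, Mfsd2a is low in 365 to 367, and Cd74, Ctcflos and Stab2 are below all vehicle animals in all 4.

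Few markers of other cells were called. Among 15 tested Kupffer cell and macrophage markers, Cd68 was called higher and none lower, 3 were positive and the median was -0.38; the mean level was 6.31 to 6.96 with vehicle and 6.0 to 6.77 with tolvaptan. The remaining 9 marker lists, of dendritic, stellate, bile duct, T and NK, B, neutrophil, red, pancreatic and fat cells, had no called gene, and their medians lay between -0.24 (stellate cells and fibroblasts) and -0.01 (bile duct cells). Mean levels of neutrophil markers were 2.88 to 3.30 with vehicle and 2.80 to 3.26 with tolvaptan, near the array median. Cyp2e1 was the 1 called gene of 12 hepatocyte markers (-0.19 ± 0.05, not called without 363, 364, 367 or 368). The part of cell composition in these results was not tested.

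Some genes of protection against oxidants and of protein turnover were also called, where 0.991% of all genes tested were called higher. Of 23 tested NRF2 targets, Pgd, of the NADPH-producing pentose phosphate pathway, and Srxn1, the sulfiredoxin, were called higher and 16 were positive (median 0.28). Pgd read 7.67, 7.50, 7.10 and 7.05 with vehicle and 7.96, 7.71, 8.62 and 9.08 with tolvaptan (1.11 ± 0.26), and Srxn1 was high only in 367 (8.94) and 368 (9.29). Pgd lost its call without animal 368, and Srxn1 without 361, 362, 363, 364, 367 or 368. Of 28 proteasome subunits, Psmd8, Psmd13 and Psmd2 were called higher and 24 were positive, with a median of 0.17. In scan 4 the median of the NRF2 targets was 0.12, and that of the proteasome subunits was 0.04 with 15 positive. Psmd8 read 10.30 to 10.39 with vehicle and 10.55, 10.51, 11.10 and 11.80 with tolvaptan, and was the 1 subunit called without animal 364 (0.68), though not without 368. Rpl23, a protein of the large ribosomal subunit, was called without each animal (0.61 ± 0.12) as the 1 of 11 ribosomal proteins tested.

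Agt, the angiotensinogen precursor, read 10.81, 11.00, 10.53 and 11.19 with vehicle and 11.73, 11.11, 12.51 and 12.22 with tolvaptan. Animal 366 overlapped with the vehicle range through animal 364, and the difference of 1.01 ± 0.18 (1.06 without animal 364) was called without each animal and without both 361 and 364 (1.08). It was the 1 called gene of 8 in the list of the drug target and vasopressin signalling. Avpr1a, the vasopressin receptor of liver, was between 5.66 and 6.97 with vehicle and between 4.97 and 7.74 with tolvaptan (0.18 ± 0.46, not called). Avpr2, the target of tolvaptan, read 1.93 to 2.41 in all 8 animals, under the array medians, and did not pass the filter on dim genes. Of 22 CAR and PXR targets, Cyp3a25 (-1.33 ± 0.30, not called without 364 or 367) and Abcc3 were called lower and none higher. The median of that list was -0.12 with animal 364 and 0.01 without it. Cyp3a11, a main drug-oxidizing enzyme, was at 12.15 to 13.21 and 12.39 to 12.88 and was not called (-0.13 ± 0.31). Cyp2b10, the classic CAR target, read 2.31, 3.89, 2.99 and 7.92 with vehicle and 3.99, 3.31, 7.52 and 5.51 with tolvaptan. Animal 364 was the highest of all 8, and the difference was 0.75 ± 1.12 with it and 1.92 without it, not called in either case. Alas1, the first enzyme of heme synthesis, was not called (0.27 ± 0.50), with 10.53 to 11.41 against 10.62 to 11.20.

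Single calls stood in further lists. Over all genes tested 0.913% were called lower, so 1 or 2 calls in a list are not read as a result about that list. Alad, of heme synthesis, was called lower (-1.03 ± 0.29, not called without 361, 364, 367 or 368), as the 1 of 22 genes of heme and iron. F10 and Proc, coagulation factor X and protein C, differed by -0.41 ± 0.11 and -0.41 ± 0.09 as the 2 called genes of 33 in complement and coagulation, where 12 were positive. F10 lost its call without 361 or 367, and Proc without 368. Ugt1a9, whose transcript shares exons with other Ugt1a genes, was called lower with animal 364 (-0.51) and not without it (-0.25), nor without 365 or 367, as the 1 of 29 in its list. The other 17 pathway lists had no called member. Among them, heat shock genes had a median of 0.34, with 13 of 16 positive, and cholesterol synthesis a median of -0.46, with 1 of 16 positive; their mean levels overlapped between the groups.

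The animals differed in how far they moved, and in which genes. Over the 66 genes called higher both with and without animal 364, the median distance from the mean of vehicle animals 361 to 363 was 0.88 in animal 365, 0.40 in 366, 1.22 in 367 and 1.55 in 368. Over the 73 genes called lower it was -0.42, -0.17, -0.92 and -1.76. Animal 364 lay at 0.07 and -0.12 over the same genes. Animal 368 was the most extreme tolvaptan animal in 37 of the 66 and 55 of the 73 genes, and animal 366 in 0 and 2. In 38 of the 66 and 33 of the 73 genes all 4 tolvaptan animals passed all of 361, 362 and 363. These genes were chosen on the same arrays, so the distances describe them and support nothing. Animals 365, 366 and 367 shared scan 4. Animal 368 was the only OR5119 tolvaptan animal of scan 1, which also held vehicle animal 364 and tolvaptan animals of other strains. Within OR5119, scan and animal cannot be told apart for 368, and the part of scan in these distances was not tested.

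**Figure D4:**
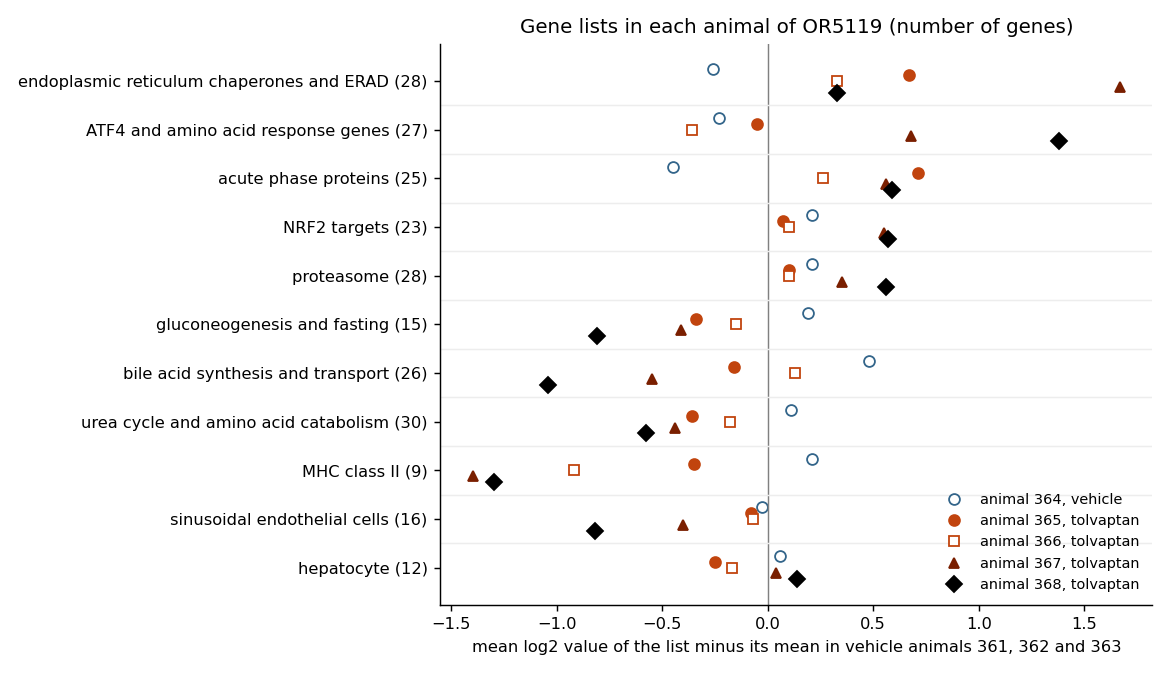
Mean log2 value of 11 gene lists in vehicle animal 364 and tolvaptan animals 365 to 368, minus the list's mean in vehicle animals 361, 362 and 363 (number of tested genes in brackets). Chaperones of the endoplasmic reticulum are highest in animal 367 (1.67), amino acid response genes in animal 368 (1.38), and bile acid genes are lowest in animal 368 (-1.04).

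The averaged difference of the other 44 strains shares no array with OR5119. There limma called 62 of 14125 genes (0.439%), 40 higher and 22 lower, with 1263 at an unadjusted p under 0.05. Without the arrays that did not match their labelled strain, 34 over the whole series, the count was 18. The calls of the other strains and of OR5119 had 18 genes in common, which is 6.69% of the OR5119 calls and 29.0% of the others' calls, and all 18 had the same direction. Of the 62 genes, 49 had the same sign in OR5119. Without the arrays off their strain, 3 genes were shared. Saa3 averaged 0.86 ± 0.12 (SE, adjusted p = 2.2e-07) and Derl3 0.94 ± 0.13 (adjusted p = 1.37e-07) in the other strains, with 34 of 44 strains positive for each. Slpi averaged 0.43 ± 0.09 (adjusted p = 0.00274), Wfdc12 0.35 ± 0.09 (adjusted p = 0.0413), Agt 0.15 ± 0.03 (adjusted p = 0.000229) and Stab2 -0.16 ± 0.04 (adjusted p = 0.00996). Pdia6 and Pdia4 passed at 0.17 and 0.18 (adjusted p = 0.0277 and 0.0377), Hp at 0.06 (adjusted p = 0.0189), and Sardh at -0.13 (adjusted p = 0.0288). When arrays off their strain were left out, Saa3, Derl3 and Stab2 of these 10 genes were still called (adjusted p = 0.000429, 1.14e-05 and 0.0363). Psat1 (0.24 ± 0.08, adjusted p = 0.212), Pck2 (0.08 ± 0.04, adjusted p = 0.565), Asns (0.19, adjusted p = 0.552), Cd74 (-0.06, adjusted p = 0.841) and Nr1i3 (0.00, adjusted p = 0.999) did not pass in the other strains. Alas1, not called in OR5119, passed there (0.35 ± 0.08, adjusted p = 0.00692).

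The OR5119 difference minus the mean difference of the other strains was called in 199 genes (1.41%), 98 above and 101 below, and in 97 (0.687%) without animal 364, with 83 genes called both ways. It uses the OR5119 contrast that selected the strain and is a description. Leaving out animals 365, 366, 367 and 368 in turn gave 356, 540, 67 and 53 genes, and leaving out 361 and 364 together gave 20. The 5 largest excesses called both with and without animal 364 were Psat1 (3.26 ± 0.57), Cpne8 (2.38), Cd68 (1.99), Pck2 (1.95 ± 0.29) and Cyb5r1 (1.85), and the 5 largest deficits were Mfsd2a (-2.27), Dpys (-2.07), Ctcflos (-1.93), Nr1i3 (-1.81) and Abcc3 (-1.60). OR5119 ranked first of 45 strains for Psat1, Wfdc12, Cpne8, Cd68, Pck2 and Agt and last for Stab2, Cd74, Nr1i3 and Dpys. For Pck2 the next strain was OR3609 at 0.65, against 2.04 in OR5119 (1.24 there as the mean of 2 probe sets, which was not ranked by strain). For Cd68 it was OR3154 at 0.59. For Nr1i3, by contrast, AU8049 was at -1.64, close to the -1.81 of OR5119. Other strains also came near for Wfdc12 (OR3393 at 2.43 against 2.76) and Stab2 (OR5035 at -1.01 against -1.23). The next strains were AU8033 at 2.37 for Psat1 (3.5 in OR5119), OR3154 at 1.65 for Cpne8 (2.6) and AU8049 at 0.69 for Agt (1.01). They were OR5035 at -1.05 for Cd74 (-1.67) and AU8033 at -0.81 for Dpys (-2.04). Saa3 was exceeded in AU8033, at 3.35. Derl3 was exceeded in AU8033, at 4.48, and in AU8004, at 3.30 against 3.29, so that OR5119 ranked 3rd. Neither Saa3 nor Derl3 was called in this contrast.

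**Figure D5:**
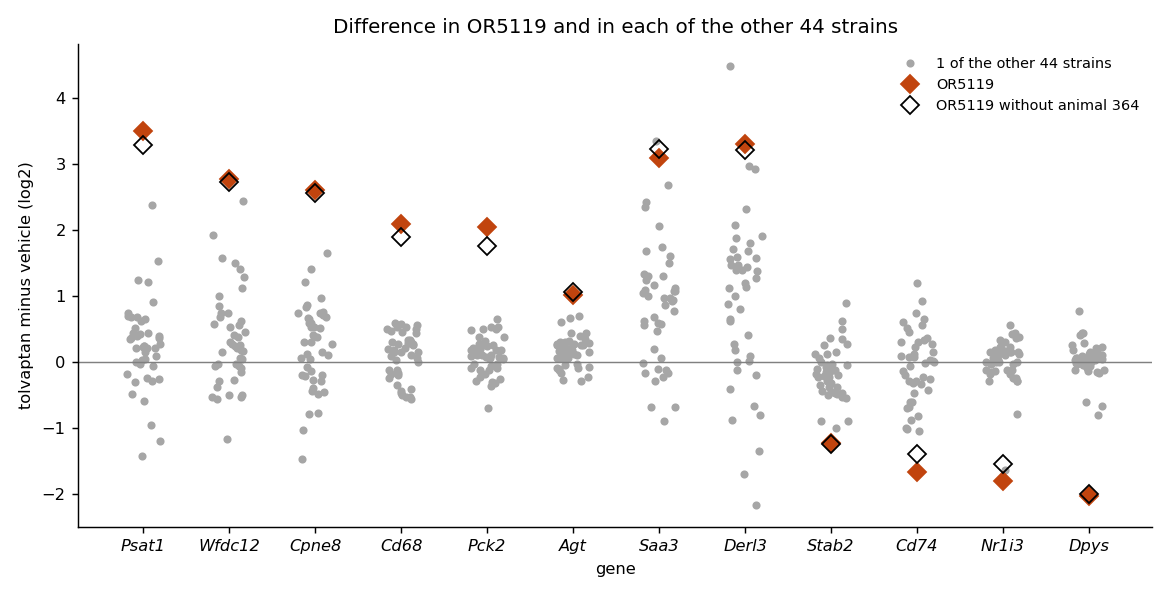
Tolvaptan minus vehicle (log2, adjusted for scan) for 12 genes in OR5119 (red), in OR5119 without animal 364 (open) and in each of the other 44 strains (grey, spread sideways at random). Pck2 and Cd68 in OR5119 stand at 2.04 and 2.08 with the other strains at 0.65 or below. For Saa3, Derl3, Nr1i3, Wfdc12 and Stab2 other strains reach or approach the OR5119 value.

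The baseline of the strain was read from its vehicle animals against the vehicle means of the other 44 strains, and uses the same vehicle arrays as the response that selected the strain, so it too is a description. It differed in 404 genes (2.86%), 265 higher and 139 lower, and in 954 (6.75%) without animal 364, with 352 called both ways. Leaving out 361, 362 or 363 instead gave 112, 161 and 162 genes. Cox6b2, a testis-type subunit of cytochrome oxidase, read 8.56, 8.38 and 8.33 in vehicle animals 361 to 363 but 3.30 in animal 364, and 6.48 to 7.83 with tolvaptan; the median strain mean elsewhere was 3.69. Bex1, Col5a2, a fibrillar collagen chain, and Eci3, a fatty acid isomerase of peroxisomes, had the same order, with 2.17, 3.75 and 2.82 in animal 364 and at least 6.02, 8.51 and 5.38 in the other 7 animals. With animal 364 the excess of these 4 genes was 3.12, 2.93, 2.67 and 2.40, and without it 4.68, 4.36, 4.26 and 3.46. Abhd1 was the other large excess (1.96, or 2.14 without animal 364). Enho, which encodes the peptide adropin, read 4.19, 4.03, 4.02 and 5.31 with vehicle, against a median strain mean of 8.20, a deficit of -3.39 ± 0.40. Ifi27l2a, Obp2a, H2-Bl and Gstm2 were lower by -2.99, -2.93, -2.85 and -2.82. Between strains, the arrays cannot tell a difference in transcript level from one in hybridization. With all 8 animals none of the 10 was called in the response, but Col5a2 was called without animal 362 (2.72) and Cox6b2 without the arrays off their strain (-1.53). Their response moved with animal 364: without it, Cox6b2 went from -0.10 to -1.53, Bex1 from 0.85 to -0.45, Col5a2 from 1.98 to 0.53 and Eci3 from 0.94 to -0.03. Ifi27l2a went from -0.45 to 0.11 and H2-Bl from -0.03 to 0.30. Among the named genes called in the response, Ctcflos was higher (1.33) and Cyb5r1 (-1.05), Abcc3 (-0.83) and Ugt1a9 (-0.51) were lower in OR5119 vehicle animals than elsewhere, each with and without animal 364. Called only without animal 364 were Pck2 (0.84), Nr1i3 (-0.91) and Pygl (-0.62). Mfsd2a (1.30), Cmpk1 (-1.05) and Pdia6 (-0.76) were called only with it.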

How the data were processed

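Liver RNA of 354 male mice was measured on Affymetrix HT_MG-430 PM arrays, 1 per animal. The deposited log2 values are RMA summaries made with Affymetrix Expression Console, per the submitters' processing notes; versions, genome build and whether all arrays were normalized together are not given in the sources used here. Values were used as deposited. All value columns matched a labelled sample (0 did not). The dose label has no unit and is not used. Precision is limited by the number of arrays, which have no read depth.

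Of 42597 probe sets, 27691 carried 1 gene symbol, 493 several and 14376 none, besides 37 controls. Entrez identifiers of 27494 were found in the RefSeq table of GRCm38.p6, used for names. For each gene the probe set of highest mean with 1 symbol was taken, and the 14125 genes above the array median in at least 4 arrays were tested. No gene positions are given other than promoter windows, since no build is named for the values. Genes of the lists without such a probe set are not analysed here.

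All 354 arrays entered a limma 3.58.1 model (R 4.3.3) of 1 mean per strain and treatment, with scan as a 6-level factor (scan 1 the earliest). Contrasts were two-sided with Benjamini-Hochberg adjustment over all genes, called at 0.05. A difference is the fitted tolvaptan minus vehicle, so it can depart from the difference of the plain means. The other 44 strains were fitted on their own 346 arrays. Tables and figures used Python 3.11.15. The steps were tested on simulated data.

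The members, the 45 gene lists (12 of cell type markers, 33 of pathways) and the alternatives were chosen with earlier results of these data known. Named genes were the 12 largest rises and falls called with and without animal 364 and of constant sign without each animal, up to 4 called members per list or the largest where none was called, 15 genes always named, and the 5 largest in each direction for the difference from other strains and for the baseline. No paired analysis was possible because the labels give the animals of the groups no shared replicate numbers. Alternatives were the animals left out in turn, arrays off their strain left out, no scan term, scan 4 alone, OR5119 arrays alone, other filters on dim genes, the mean of probe sets, quantile or median scaling, a trended robust prior and a fold of at least 1.5.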

Additional observations from a re-analysis of the deposited data

Results flagged for a closer look

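In 12 of 200 groups of 4 animals (100 genes in both groups) 1 animal stood apart from the other 3, with a gap over 0.83 of the range; chance gives about 1 in 20 such groups. Vehicle animal 361 was the highest of its group for Try5 (3.07), Abcg8 (9.24), F10 (11.88) and Psmd13 (8.09). Vehicle animal 364, which is off its strain, was the lowest for Ccl5 (2.68), Cox6b2 (3.30) and Eci3 (2.82) and the highest for Ugt1a9 (12.08) and Enho (5.31). Vehicle animal 363 was the highest for Cmpk1 (8.44). Tolvaptan animal 366 was the lowest for Hsp90aa1 (2.88), and animal 368 the highest for Hilpda (8.19).

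For 45 of the 100 genes limma called a difference between the response of OR5119 and the mean response of the other 44 strains at an adjusted p under 0.05. The strain was selected on its response, so these values describe it. They include animal 364; without it all 45 kept their sign and 25 were still called. The 20 not called without it were Wfdc12, Asns, Pdia6, Slc3a2, Pgd, Crip2, Amdhd1, Cd74, Sulf2, Echdc3, Cyp2e1, Cyp3a25, Pygl, Pcx, Cyp8b1, Slc10a1, Abcg8, H2-Ab1, Alad and Ugt1a9. The response was higher in OR5119 for Psat1 (3.26), Wfdc12 (2.42), Cpne8 (2.38), Cd68 (1.99), Pck2 (1.95), Cyb5r1 (1.85), Gla (1.75) and S100g (1.58). It was also higher for Tes (1.6), Cmpk1 (1.71), Pdia6 (1.22), Asns (2.33), Slc3a2 (0.98), Pgd (1.04), Psmd8 (0.68), Rpl23 (0.58) and Agt (0.86). The response was lower in OR5119 for Mfsd2a (-2.27), Dpys (-2.07), Ctcflos (-1.93), Nr1i3 (-1.81), Crip2 (-1.61), Amdhd1 (-1.68), Cd74 (-1.62), Abcc3 (-1.6) and Sulf2 (-1.53). Further values below the others were those of Notum (-1.6), Pbld2 (-1.54), Echdc3 (-1.35), Cyp2e1 (-0.2), Stab2 (-1.07), Cyp3a25 (-1.33), Fads1 (-0.86), Slc37a4 (-1.11) and Pygl (-0.78). Lower too were Pcx (-0.56), Fbp1 (-0.49), Cyp8b1 (-2.08), Slc10a1 (-1.05), Abcg8 (-0.87), Sardh (-0.87), H2-Ab1 (-2.81), Alad (-1.02), Proc (-0.38) and Ugt1a9 (-0.52).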

How the results depend on the processing

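All OR5119 calls and SEs rest on a spread estimated over all strains. Calls of the response numbered 269 and ran from 95 to 591 when 1 animal was left out, 35 without both vehicle animals 361 and 364, 8 in scan 4 alone (1047 at an unadjusted p under 0.05) and 0 from the 8 arrays alone (525 unadjusted by limma). Without animal 364 they numbered 165, 35 without 361 as well, and 0 from the remaining 7 arrays alone (462 unadjusted). Both unadjusted counts from OR5119 arrays alone are below the share of 0.05 of 14125 genes reached on average with no difference. The difference from the other strains (199) ran from 53 to 540 with 1 animal left out, and was 20 without 361 and 364 and 1 in scan 4. The averaged difference of the other strains (62) was 18 without arrays off their strain, 0 in scan 4 (630 at an unadjusted p under 0.05) and 2 at a fold of at least 1.5. The baseline (404) ran from 112 to 954 with 1 animal left out, and was 1242 without arrays off their strain and 265 at a fold of at least 1.5. Fewer arrays, or a stricter rule, are part of the construction of these settings; otherwise the cause was not tested. All other settings kept these counts within 1.5 times. Of the 59 named genes called in the response, 58 kept their sign in scan 4 and 3 kept their call, and all 59 kept their sign without each animal. Echdc3 turned to 0.02 in scan 4. Among genes not called and not named for the baseline alone, the difference turned in scan 4 for Acot3 (0.06) and Trp53inp1 (-0.34), without arrays off their strain for Cyp3a11 (0.06) and without 361 and 364 for Abcc2 (-0.08). With 1 animal left out, it ran from -0.27 (without 367) to 0.64 for Avpr1a, from -0.08 (without 367) to 1.92 for Cyp2b10, from -0.29 to 0.06 (without 364) for Cyp3a11 and from -0.05 (without 361) to 0.28 for Abcc2. Of the genes named for the baseline, the response turned in scan 4 for Bex1 (-1.01), Ifi27l2a (0.56) and H2-Bl (0.19). It turned without arrays off their strain for Bex1 (-0.46), Eci3 (-0.03), Ifi27l2a (0.12) and H2-Bl (0.30), and without 361 and 364 for the same genes (-1.09, -0.20, 0.57 and 0.22). With 1 animal left out it ran from -1.53 to 0.44 for Cox6b2, -0.45 to 1.59 for Bex1, -0.03 to 1.41 for Eci3, -0.84 to 0.11 for Ifi27l2a, -0.03 to 0.39 for Obp2a, -0.27 to 0.30 for H2-Bl and -0.09 to 0.36 for Gstm2. No paired analysis was possible because the labels give no shared replicate numbers.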

Other observations

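Of the lists without a called member, the glucocorticoid-responsive genes spread most between the tolvaptan animals. Over 14 genes their mean level was 7.97, 7.43, 8.78 and 9.93 in animals 365 to 368, against 8.09 to 8.56 with vehicle, so that animals 365 and 366 lay below the vehicle range and 367 and 368 above it, while the median difference was 0.02. Immediate early genes were lowest in animal 365 (5.05) and highest in 368 (6.92), with 5.51 to 6.12 in the vehicle animals. Hilpda, a lipid droplet protein induced by hypoxia and fasting, read 4.37, 4.48 and 5.01 in animals 365 to 367 and 8.19 in 368, against 4.46 to 4.71 with vehicle. Cd14, a receptor for bacterial lipopolysaccharide, read 6.08, 5.25, 7.23 and 9.19 with tolvaptan and 4.72 to 6.18 with vehicle, and was not called (1.74 ± 0.54). Acot3, a peroxisomal thioesterase of the PPAR-alpha targets, read 9.71, 8.35, 5.02 and 3.29 in animals 365 to 368 and 7.20, 7.47, 7.80 and 9.67 in 361 to 364, and was not called either. Dbp, a clock output gene, read 8.31, 8.97, 5.72 and 3.77 with tolvaptan and 7.68 to 9.03 with vehicle, again with 367 and 368 lowest. Car3, a carbonic anhydrase of liver and fat, read 11.53, 12.19, 7.38 and 8.48 with tolvaptan and 10.86 to 11.99 with vehicle.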
